A study of Mus musculus with 9 samples.

Results

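A set of 47 genes for DNA replication and nucleotide synthesis was followed in mouse jejunum, out of 31685 genes with a value. The members were chosen by gene symbol, as the genes of origin licensing and firing, the replicative polymerases, the sliding clamp with its loader, Okazaki fragment joining, deoxynucleotide supply, and the chromatin and cyclin factors of S phase. All 47 symbols were found in the table. They fall into origin licensing (11 genes), origin firing (6), polymerases and primase (8), clamp, loader, RPA and ligation (10), nucleotide synthesis (5), chromatin and histone mRNA (4), and E2F1 with the cyclins E (3).

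Dividing cells duplicate their DNA from origins that are loaded with the MCM2-7 helicase in G1 and fired in S phase, and the enzymes that make deoxynucleotides are produced in the same window. Many of these genes are known targets of E2F transcription factors. In the small intestine, dividing cells sit in the crypts, as stem cells and transit amplifying progenitors, while the villus epithelium does not divide. Ionizing radiation damages the dividing crypt compartment first.

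All mice were wild-type C57BL/6J males of 6 to 8 weeks. The control group (n = 3) had no treatment. The TAI group (n = 3) received a single X-ray dose of 12 Gy to the whole abdomen and PBS. The TAI/IVIg group (n = 3) received the same irradiation and 500 mg/kg of intravenous immunoglobulin (IVIg, a human IgG preparation) within 1 h, with injections repeated at intervals of 3 days. The jejunum of the irradiated groups was taken on day 3. RNA of whole jejunal tissue was sequenced, so that fewer dividing cells and less RNA per cell cannot be told apart in any value that follows. The question put to these groups was how the irradiated intestine responds with and without IVIg. The libraries are numbered as separate samples and the methods describe replicates as independent, and all 9 carry the same batch label.

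The deposited unit is FPKM, the fragments of a gene scaled by gene length and library total, which allows levels of different genes to be set side by side. Library totals were 16282129 to 18241963 reads. Levels of the members were low to moderate: the control mean ran from 0.512 FPKM for Fen1 to 39.2 FPKM for Pcna. The summed FPKM of the 12 enterocyte markers checked was 14469 to 23068 in the control mice and 32085 to 52792 in all 6 irradiated mice. By limma, 8 of these 12 markers were higher in TAI than in control and 0 lower, where 8.81% of all genes tested were higher and 26.1% lower. Sis went the other way without passing the test (log2 fold change -1.12, limma adjusted p = 0.0631). No marker of this list was at 0 in any mouse, so enterocyte markers were present in the whole tissue. Markers of other cell types are given after the members.

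Promoters of 4 members are shown because their genes carry the results below: Mcm5 and Mcm6, the helicase subunits with the largest log2 fold changes in TAI, both of which hold E2F words, Uhrf1, the member with the lowest TAI mean relative to control, and Rrm2, the nucleotide synthesis gene with the largest log2 fold change, which holds no E2F word. Each is the 250 bases before a RefSeq start on GRCm38.p6, read 5′ to 3′ on the strand of the gene, and capitals mark E2F words. The positions are chr8:75109259-75109508 (plus strand) for Mcm5, chr1:128359706-128359955 (minus strand) for Mcm6, chr17:56304063-56304312 (plus strand) for Uhrf1, where a further start upstream has no E2F word in its window, and chr12:24708004-24708253 (plus strand) for Rrm2.
Mcm5: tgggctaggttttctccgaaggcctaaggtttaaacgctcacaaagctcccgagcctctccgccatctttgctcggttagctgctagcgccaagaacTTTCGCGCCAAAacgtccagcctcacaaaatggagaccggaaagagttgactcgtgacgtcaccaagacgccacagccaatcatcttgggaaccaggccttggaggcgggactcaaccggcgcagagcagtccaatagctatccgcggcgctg
Mcm6: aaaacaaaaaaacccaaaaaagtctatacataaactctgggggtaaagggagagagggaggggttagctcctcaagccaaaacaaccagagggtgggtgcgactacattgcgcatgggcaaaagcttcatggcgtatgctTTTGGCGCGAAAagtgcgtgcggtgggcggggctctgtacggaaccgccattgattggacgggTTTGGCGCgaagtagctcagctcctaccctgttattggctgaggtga
Uhrf1: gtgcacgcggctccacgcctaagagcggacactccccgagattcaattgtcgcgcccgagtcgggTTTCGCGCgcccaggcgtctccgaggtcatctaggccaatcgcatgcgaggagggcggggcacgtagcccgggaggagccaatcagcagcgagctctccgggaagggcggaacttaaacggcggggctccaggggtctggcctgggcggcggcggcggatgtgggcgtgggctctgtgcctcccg
Rrm2: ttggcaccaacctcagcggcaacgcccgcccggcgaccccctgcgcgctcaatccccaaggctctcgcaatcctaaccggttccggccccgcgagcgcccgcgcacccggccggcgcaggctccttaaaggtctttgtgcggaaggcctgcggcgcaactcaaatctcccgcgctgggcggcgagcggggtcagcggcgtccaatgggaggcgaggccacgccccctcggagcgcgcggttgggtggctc

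The words searched on both strands were TTTCGCGC, TTTGGCGC, TTTCCCGC and TTTGCCGC, in windows from 250 bases before to 50 bases after a start. In Mcm5 and in the upstream pair of Mcm6 a word on each strand overlaps the other, so that each run of capitals longer than a word holds a pair. Of the 38 members with a RefSeq window, 14 held at least 1 such word (36.8%), against 704 of 27025 genes with a window (2.6%) and 2 of 26 mitosis genes (7.7%). A CCAAT word, read on both strands, stood in 23 of 38 members (60.5%), against 41.1% of all genes and 80.8% of the mitosis genes. The 14 members with an E2F word were Cdc6, Cdt1, Gins3, Lig1, Mcm3, Mcm5, Mcm6, Mcm7, Orc1, Pola1, Pold1, Pole2, Rfc3 and Uhrf1. Their TAI mean was at a median of 30.6% of the control mean (from 11% to 56.4%), beside 28.0% (from 16.3% to 78%) for the 24 members with a window and no word. The ranges overlap over most of their length. No window was listed for Ccne2, Gins1, Gins2, Gins4, Gmnn, Mcm4, Pole, Prim2 and Rfc2.

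After TAI most of the replication genes fell. The summed FPKM of the 47 genes was 151, 309 and 332 in the control mice, 81.0, 100.3 and 97.0 in the TAI mice, and 71.1, 96.9 and 69.0 in the TAI/IVIg mice. Every irradiated mouse was below every control mouse, and the TAI and TAI/IVIg mice overlapped. For 39 of the 47 genes each TAI mouse was below each control mouse, and for 0 genes was each above. Of all listed genes, 19.8% had each TAI mouse below and 10.7% each above. Among the 13056 genes tested by limma, these shares were 38.0% and 15.1%. The TAI mean was at a median of 29.7% of the control mean, from 11% for Uhrf1 to 140% for Ccne2, with 40 of 47 genes below 50% and 16 below 25%. Over all genes tested the median was 80.5%.

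**Figure D1:**
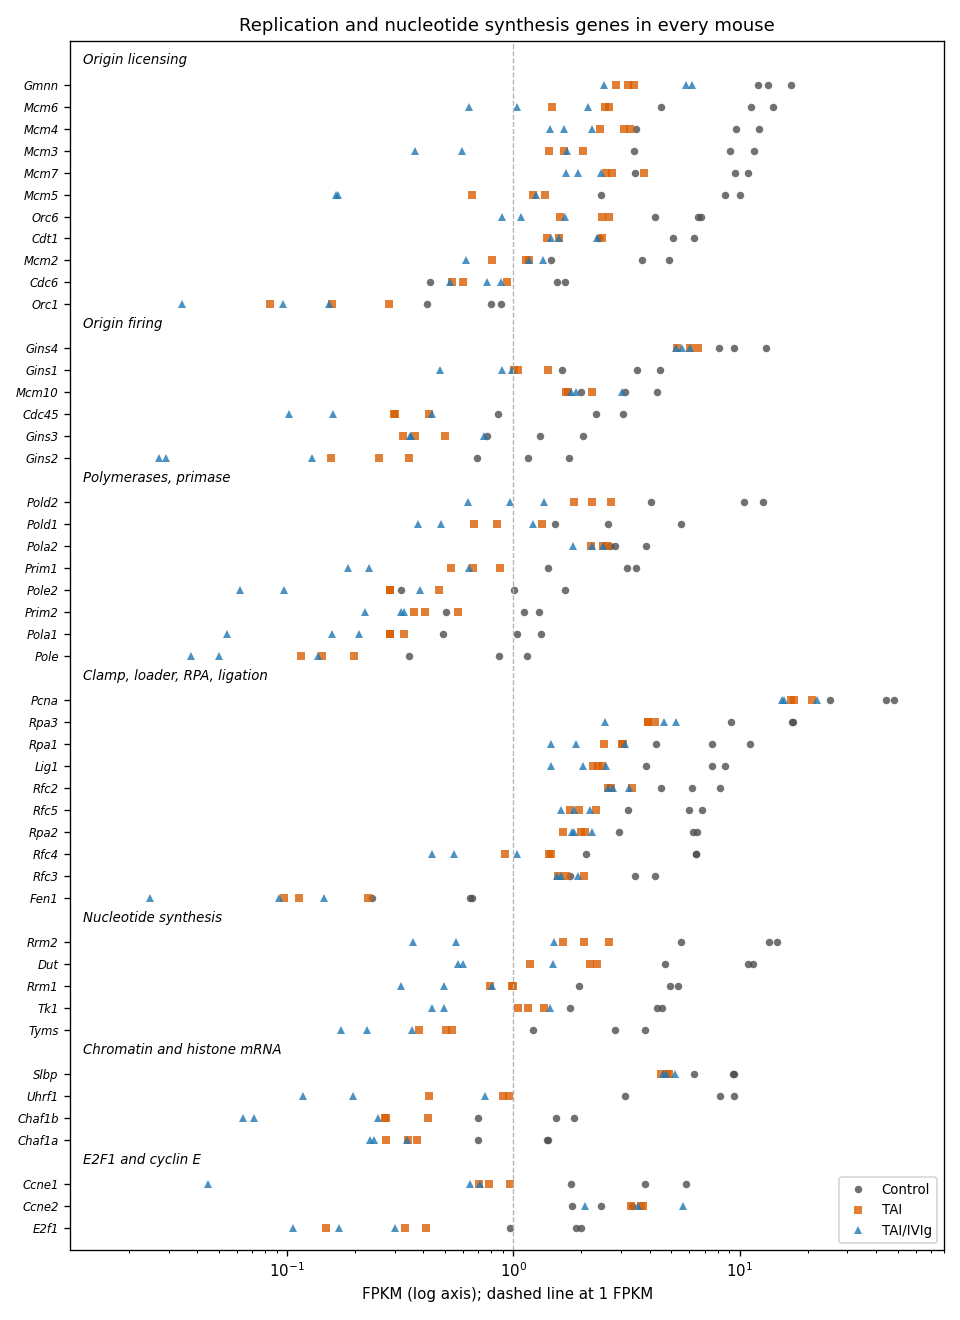
FPKM of each of the 47 genes (log axis) in the 3 control (grey circles), 3 TAI (orange squares) and 3 TAI/IVIg mice (blue triangles), 1 point per mouse, grouped by function and sorted by the control mean, with a dashed line at 1 FPKM. The control points lie to the right for nearly every gene, with Ccne2 as the gene whose TAI mean is at 140% of control.

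In the limma test on log2(FPKM + 1), a scale on which changes of low genes are understated, 34 of the 47 genes passed the filter, which asked for 3 or more mice at an FPKM of 1 or above. Of these, 30 were lower in TAI at an adjusted p under 0.05 and 0 higher, where 26.1% of all genes tested were lower and 8.81% higher. Prim1, Tyms, Uhrf1 and Ccne1 passed the filter through their control mice alone, so that their calls are no independent support. Of the other 30 members tested, 26 were lower and 0 higher. Among these 26, Rrm1 and Pold1 reached 1 FPKM in fewer than 3 irradiated mice. They passed only with the help of their control mice, so their calls are no independent support either. Without any filter, 29 of all 47 genes were lower and 0 higher, where 8.72% of all 31685 genes were lower and 3.39% higher. With limma voom on the reads behind the FPKM values, which all 47 genes entered (at least 10 reads in at least 3 mice), 35 were lower and 0 higher, where 20.0% of the genes were lower and 7.65% higher. The 13 genes below the filter were Orc1, Cdc6, Cdc45, Gins2, Gins3, Pola1, Prim2, Pole, Pole2, Fen1, Chaf1a, Chaf1b and E2f1, and the voom fit placed all 13 below 0 and called 9 of them lower. Among the 34 genes tested, the median log2 fold change was -1.08, beside -0.23 for all genes tested. With library medians set equal, which moved the median of all genes to 0.03, the median of the members was -0.79 and 24 were lower, where 12.9% of all genes tested were.

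The control mice differed among themselves in the same genes. Control 1 was the lowest control mouse for 47 of 47 genes, where it was lowest for 51.7% of all genes tested, and it stood at a median of 41.7% of the mean of control 2 and control 3 (85.1% over all genes). Without control 1, each TAI mouse was below each control mouse for 46 of 47 genes, where 26.7% of all listed genes were, and 32 of 34 were called lower by limma, where 28.3% of all genes tested were. The number called was 18 without control 2 (15.0% of all genes tested), 19 without control 3 (15.9%) and 15 without TAI 1 (12.6%), and the medians of these 4 fits lay between -1.39 and -0.89. Every one of these medians was below 0, while the number of members past the threshold depended on the mice included, as did that of all genes tested.

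Genes of origin licensing fell, all 9 tested of 11, where 26.1% of all genes tested were lower. The MCM2-7 complex is the helicase that is loaded at origins and later unwinds the DNA. The FPKM summed over its 6 subunits was 18.7, 51.9 and 63.7 in the control mice, 9.35, 12.4 and 14.3 in the TAI mice, and 6.76, 10.9 and 4.94 in the TAI/IVIg mice. Each irradiated mouse was below each control mouse, with control 1 the nearest. The TAI mean of the subunits ranged from 15.4% of control for Mcm5 to 37.9% for Mcm7. Differences between the subunits were not tested.

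Mcm5 (ENSMUSG00000005410, 17 merged exons at chr8:75109569-75128439, plus strand) was at 2.45, 8.60 and 10.1 FPKM in the control mice, 0.658, 1.21 and 1.37 in the TAI mice, and 0.167, 1.25 and 0.164 in the TAI/IVIg mice. No TAI mouse reached a control mouse, and TAI/IVIg 2 stood among the TAI mice while TAI/IVIg 1 and 3 stood below all of them. The log2 fold change in TAI was -1.80 (standard error 0.44, limma adjusted p = 0.0144). Mcm5 was no longer past the threshold without control 2, control 3 or TAI 1 (limma adjusted p = 0.0531, 0.0521 and 0.0585).

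Geminin (Gmnn, ENSMUSG00000006715, chr13:24751845-24761923, minus strand), the inhibitor of Cdt1 that blocks licensing after origins have fired, was at 12.1, 13.3 and 16.9 FPKM in the control mice, 2.83, 3.23 and 3.40 in the TAI mice, and 2.51, 5.78 and 6.19 in the TAI/IVIg mice. The control mice were close to each other here, control 1 included, and TAI/IVIg 2 and 3 lay above the TAI mice. Gmnn had the largest limma log2 fold change of the licensing group in TAI, -1.85 (standard error 0.26, limma adjusted p = 0.00178). As a share of the control mean, the TAI means of Mcm5 (15.4%) and Mcm3 (21.3%) were below that of Gmnn (22.4%). Cdt1, which loads the helicase, was at 2.38, 5.06 and 6.29 FPKM in the control mice, 1.41, 1.58 and 2.46 in the TAI mice, and 1.47, 2.34 and 1.60 in the TAI/IVIg mice. TAI 3 was above control 1, so the groups overlapped, and the fall of 0.93 on the log2 scale was the smallest of the group (standard error 0.29, limma adjusted p = 0.0335). Cdc6, a partner of Cdt1 in loading, was below the filter, and its control 1 value of 0.429 FPKM was below every TAI mouse. Orc6, a subunit of the origin recognition complex, was at 4.24, 6.58 and 6.76 FPKM in the control mice, 1.61, 2.64 and 2.46 in the TAI mice, and 1.08, 1.69 and 0.894 in the TAI/IVIg mice. The control mice stood apart from both irradiated groups, and the log2 fold change in TAI was -1.08 (limma adjusted p = 0.00689).

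**Figure D2:**
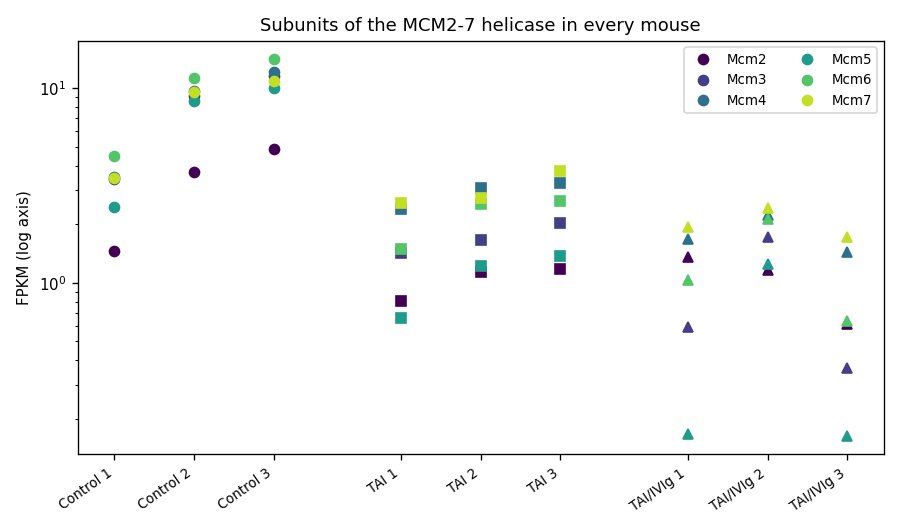
FPKM (log axis) of the 6 subunits of the MCM2-7 helicase, coloured by subunit, in each of the 9 mice along the horizontal axis, 1 point per subunit and mouse. Control 1 lies below control 2 and 3 for all 6 subunits, and Mcm5 is the lowest subunit in TAI/IVIg 1 and 3, at 0.167 and 0.164 FPKM.

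Origin firing factors, which activate the loaded helicase, gave 2 falls among 3 genes tested, where 26.1% of all genes tested were lower. Of the 6 firing genes, 3 were below the filter. Gins1, a GINS subunit, was at 1.63, 4.44 and 3.51 FPKM in the control mice, 1.00, 1.42 and 1.05 in the TAI mice, and 0.990, 0.893 and 0.472 in the TAI/IVIg mice. Each group lay below the one before it without overlap, and the log2 fold change in TAI was -0.90 (limma adjusted p = 0.0273). Mcm10 was at 1.99, 4.33 and 3.12 FPKM in the control mice, 1.74, 2.24 and 1.71 in the TAI mice, and 3.04, 1.88 and 1.81 in the TAI/IVIg mice. The groups overlapped, and the difference did not pass the test (log2 fold change -0.48, 95% interval -1.01 to 0.04, limma adjusted p = 0.135). The 4 GINS subunits, which form a complex of 1 copy each, had TAI means at 36.2% (Gins1), 20.9% (Gins2), 28.9% (Gins3) and 58.2% (Gins4) of control. In all, 17 members share exon bases with another gene, 3 of them over more than 50% of their exon length. Gins2 is among these 3 and its level is uncertain, since 67.3% of its exon bases also lie in exons of Gse1 on the opposite strand, and whether reads were counted by strand is not given in the sources used here. Cdc45, the helicase cofactor, rested on 52 to 190 reads in the control mice and 17 to 27 in the TAI mice, with the TAI mean at 16.3% of control.

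Of the polymerases and primase, 3 of the 4 genes tested fell, where 26.1% of all genes tested were lower, and 4 of 8 were below the filter. Of the 3, Prim1 passed the filter through its control mice alone and Pold1 only with the help of its control mice. Their calls are no independent support. Pold2, an accessory subunit of polymerase delta, was at 4.07, 12.7 and 10.5 FPKM in the control mice, 1.85, 2.69 and 2.23 in the TAI mice, and 0.968, 1.37 and 0.629 in the TAI/IVIg mice. The 3 groups did not overlap, and the log2 fold change in TAI was -1.52 (limma adjusted p = 0.0101). Pola2, the accessory subunit of polymerase alpha, was at 2.66, 2.81 and 3.87 FPKM in the control mice, 2.59, 2.21 and 2.49 in the TAI mice, and 2.23, 2.49 and 1.84 in the TAI/IVIg mice. The TAI mice lay just below the control mice, and the log2 fold change of -0.25 (limma adjusted p = 0.229) turned to 0.0034 with library medians set equal. Its partners Pola1, Prim1 and Prim2, with which it forms the polymerase alpha-primase complex, had TAI means at 31.5%, 25.5% and 45.8% of control, beside 78% for Pola2.

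The clamp, clamp loader, single-strand binding and ligation genes fell in 8 of 9 tested, of 10, where 26.1% of all genes tested were lower. Pcna (ENSMUSG00000027342, chr2:132249162-132253314, minus strand), the sliding clamp and the most abundant member per length, was at 25.1, 48.1 and 44.3 FPKM in the control mice, 16.9, 20.9 and 17.5 in the TAI mice, and 15.4, 21.9 and 15.7 in the TAI/IVIg mice. All irradiated mice were below control 1, and the irradiated groups overlapped. The log2 fold change in TAI was -1.0 (standard error 0.25, limma adjusted p = 0.0148). Pcna was no longer past the threshold without control 2, control 3 or TAI 1 (limma adjusted p = 0.0541, 0.0548 and 0.0582). A processed pseudogene of Pcna has a row of its own in the table, as has that of Tyms, so reads may be split between the copies. Rpa3, the smallest RPA subunit, was at 9.17, 17.2 and 17.1 FPKM in the control mice, 3.96, 3.95 and 4.25 in the TAI mice, and 2.55, 5.23 and 4.62 in the TAI/IVIg mice. The TAI mice were nearly equal, far below the control mice (log2 fold change -1.57, limma adjusted p = 0.00373), and TAI/IVIg 1 was lower and TAI/IVIg 2 and 3 higher than they were. Rfc3, a clamp loader subunit, was at 1.78, 3.45 and 4.24 FPKM in the control mice, 1.57, 2.06 and 1.72 in the TAI mice, and 1.62, 1.92 and 1.55 in the TAI/IVIg mice. Control 1 lay among the irradiated mice, and the log2 fold change of -0.54 did not pass the test (limma adjusted p = 0.0910). The flap endonuclease gene Fen1 had 10 to 28 reads in the control mice and 4 to 9 in the TAI mice, and its level is uncertain, since 78.8% of its exon bases lie in exons of the antisense gene Gm10143.

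All 5 nucleotide synthesis genes fell, to 18.1% (Tyms), 18.9% (Rrm2), 21.1% (Dut), 22.7% (Rrm1) and 33.4% (Tk1) of the control mean. Limma called all 5 lower, where 26.1% of all genes tested were. Tyms passed the filter through its control mice alone and Rrm1 only with the help of its control mice. Their calls are no independent support. Rrm2 (ENSMUSG00000020649, chr12:24708241-24714146, plus strand), the subunit of ribonucleotide reductase that is made in S phase and whose promoter is shown above, was at 5.52, 14.7 and 13.5 FPKM in the control mice, 1.66, 2.66 and 2.06 in the TAI mice, and 0.361, 1.51 and 0.559 in the TAI/IVIg mice. The 3 groups did not overlap, and the log2 fold change in TAI was -1.88 (standard error 0.35, limma adjusted p = 0.0051). Dut, which removes dUTP and supplies the dUMP for thymidylate, was at 4.70, 11.5 and 10.9 FPKM in the control mice, 1.19, 2.34 and 2.18 in the TAI mice, and 0.60, 1.49 and 0.569 in the TAI/IVIg mice. TAI/IVIg 2 was above TAI 1, and all irradiated mice were below the control mice (log2 fold change -1.73 in TAI, limma adjusted p = 0.0055). Tk1, the thymidine salvage kinase, was at 1.77, 4.33 and 4.56 FPKM in the control mice, 1.04, 1.36 and 1.16 in the TAI mice, and 0.439, 1.45 and 0.493 in the TAI/IVIg mice. The highest TAI/IVIg mouse exceeded all TAI mice and the other TAI/IVIg mice were below them, and the log2 fold change in TAI, -0.99, was the smallest of the group (limma adjusted p = 0.0312).

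Among the chromatin genes, Uhrf1 (ENSMUSG00000001228, chr17:56303321-56323486, plus strand), which recruits the maintenance DNA methyltransferase to replicated DNA, was at 3.12, 9.42 and 8.19 FPKM in the control mice, 0.425, 0.952 and 0.901 in the TAI mice, and 0.118, 0.746 and 0.196 in the TAI/IVIg mice. The TAI mice stood far below the control mice, with the largest log2 fold change of all members tested, -2.07 (standard error 0.34, limma adjusted p = 0.00319). Uhrf1 passed the filter through its control mice alone, so its call is no independent support. Slbp, which binds the stem-loop of histone mRNA, was at 6.27, 9.39 and 9.40 FPKM in the control mice, 4.5, 4.85 and 4.76 in the TAI mice, and 4.59, 5.18 and 4.74 in the TAI/IVIg mice. The irradiated mice were close together and below control 1, and the TAI mean stayed at 56.3% of control (log2 fold change -0.69, limma adjusted p = 0.0108). Chaf1a and Chaf1b, which encode chromatin assembly factor subunits, were below the filter, with TAI means at 28.0% and 23.5% of control, and 52.5% of the exon bases of Chaf1a lie in exons of Ubxn6 on the opposite strand, so its level is uncertain.

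The regulators did not move alike. E2f1 (ENSMUSG00000027490, chr2:154559407-154569892, minus strand), an activator of S phase genes, was below the filter at 0.967, 1.88 and 2.00 FPKM in the control mice, 0.148, 0.409 and 0.33 in the TAI mice, and 0.106, 0.299 and 0.17 in the TAI/IVIg mice. The irradiated mice, with 6 to 21 reads each, were all below the control mice, with 53 to 109 reads, and the voom fit called E2f1 lower. Ccne1, cyclin E1, was at 1.79, 3.83 and 5.82 FPKM in the control mice, 0.702, 0.969 and 0.782 in the TAI mice, and 0.710, 0.641 and 0.0448 in the TAI/IVIg mice. TAI/IVIg 3, with 2 reads, stood far below the others, and the log2 fold change in TAI was -1.31 (limma adjusted p = 0.0137). Ccne1 passed the filter through its control mice alone, and limma voom on the reads did not call it (log2 fold change -2.06, limma voom adjusted p = 0.0511). Ccne2, cyclin E2 (ENSMUSG00000028212, chr4:11191351-11204779, plus strand), was at 1.81, 3.35 and 2.45 FPKM in the control mice, 3.72, 3.30 and 3.65 in the TAI mice, and 5.62, 2.07 and 3.55 in the TAI/IVIg mice. It is the only member whose TAI mean was above the control mean, TAI 2 lay just below control 2, and the log2 fold change of 0.39 did not pass the test (95% interval -0.22 to 1.00, limma adjusted p = 0.285). The difference between the responses of the cyclins E was not tested.

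**Figure D3:**
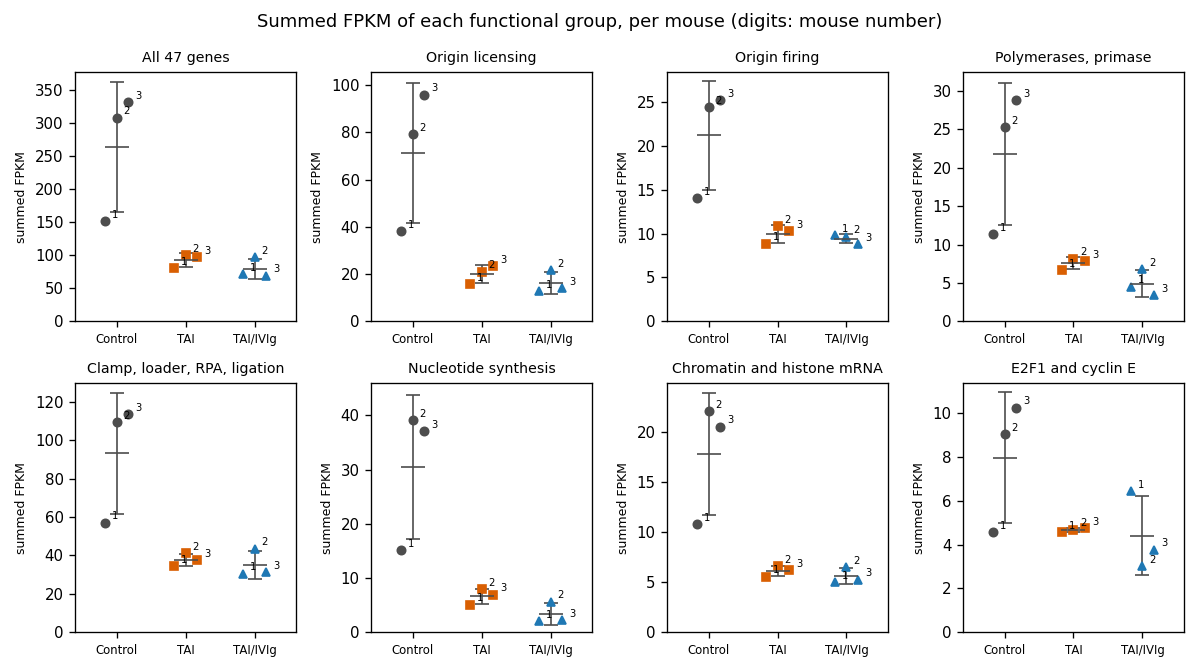
Summed FPKM of all 47 genes and of each functional group, 1 point per mouse with its number, and the mean ± SD of the 3 mice of a group as bars. Control 1 is the lowest control mouse in every panel, and the irradiated mice lie below control 2 and 3 in every panel.

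IVIg was compared with PBS in irradiated mice. At an adjusted p under 0.05, limma called 0 of 34 members in either direction, as it called 0% of all genes tested. At an unadjusted p under 0.05, 2 members were lower, Orc6 and Rrm2, and 0 higher, where 11.2% of all genes tested were lower and 1.64% higher. Each TAI/IVIg mouse was below each TAI mouse for 10 of 47 genes and above for 0 genes. The 10 were Mcm4, Mcm7, Gins1, Gins2, Pola1, Prim2, Pold2, Rrm2, Tyms and Chaf1b. Of all listed genes, 12.3% had each below and 1.87% each above, and of all genes tested 16.1% and 3.09%. The TAI/IVIg mean was at a median of 66.8% of the TAI mean, from 24.6% for Gins2 to 153% for Gmnn, with 9 of 47 genes above 100%, beside 89.3% over all genes tested. The median log2 fold change of the 34 genes was -0.26, beside -0.13 for all genes tested, and with quantile normalization it was 0.00072, with 17 genes below 0 and 17 above. As deposited, 30 of the 34 were below 0, where 69.6% of all genes tested were.

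The TAI/IVIg mice differed among themselves in the same genes. TAI/IVIg 2 was the highest mouse of its group for 39 of 47 genes, where it was highest for 55.7% of all genes tested, and stood at a median of 171% of the mean of TAI/IVIg 1 and 3 (118% over all genes). Leaving out TAI/IVIg 2, each remaining TAI/IVIg mouse was below each TAI mouse for 29 of 47 genes, where 26.2% of all listed genes were. Leaving out TAI 1, the lowest TAI mouse for 38 of the 47 genes, gave 21 of 47, where 19.9% of all listed genes were. The count was 11 without TAI 2 (15.6% of all listed genes), 11 without TAI 3 (19.0%), 11 without TAI/IVIg 1 (19.5%) and 10 without TAI/IVIg 3 (13.6%). Limma called 0 members in each of these fits.

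The smallest unadjusted limma p-values belonged to Orc6 and Rrm2. The log2 fold change of Orc6 was -0.54 (95% interval -1.03 to -0.05, limma unadjusted p = 0.0338, adjusted p = 0.364), and its TAI/IVIg 2 mouse was above TAI 1. That of Rrm2 was -0.83 (95% interval -1.63 to -0.03, limma unadjusted p = 0.0435, adjusted p = 0.382), with all 3 TAI/IVIg mice below the TAI mice. Pold2 followed at -0.72 (limma adjusted p = 0.403), Dut at -0.63 (limma adjusted p = 0.429) and Gmnn at 0.42 (95% interval -0.18 to 1.02, limma adjusted p = 0.491). Together the 95% intervals of the 34 genes spanned -1.63 to 1.02 on the log2 scale.

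By function, the TAI/IVIg mean was at a median of 94.4% of TAI for the clamp, loader, RPA and ligation genes, 81.4% for origin firing, 64.8% for the regulators, 64.4% for the chromatin genes, 61.1% for licensing, 53.2% for nucleotide synthesis and 51.8% for the polymerases and primase. Summed FPKM of the 5 nucleotide synthesis genes was 15.2, 39.2 and 37.2 in the control mice, 5.07, 7.88 and 6.90 in the TAI mice, and 2.07, 5.61 and 2.17 in the TAI/IVIg mice. TAI/IVIg 2 lay above TAI 1 and the other mice of its group lay below the TAI mice. The lowest values rest on few reads: Gins2 had 2, 9 and 2 reads in the TAI/IVIg mice against 11 to 23 in the TAI mice, and Fen1 4, 6 and 1 against 4 to 9.

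**Figure D4:**
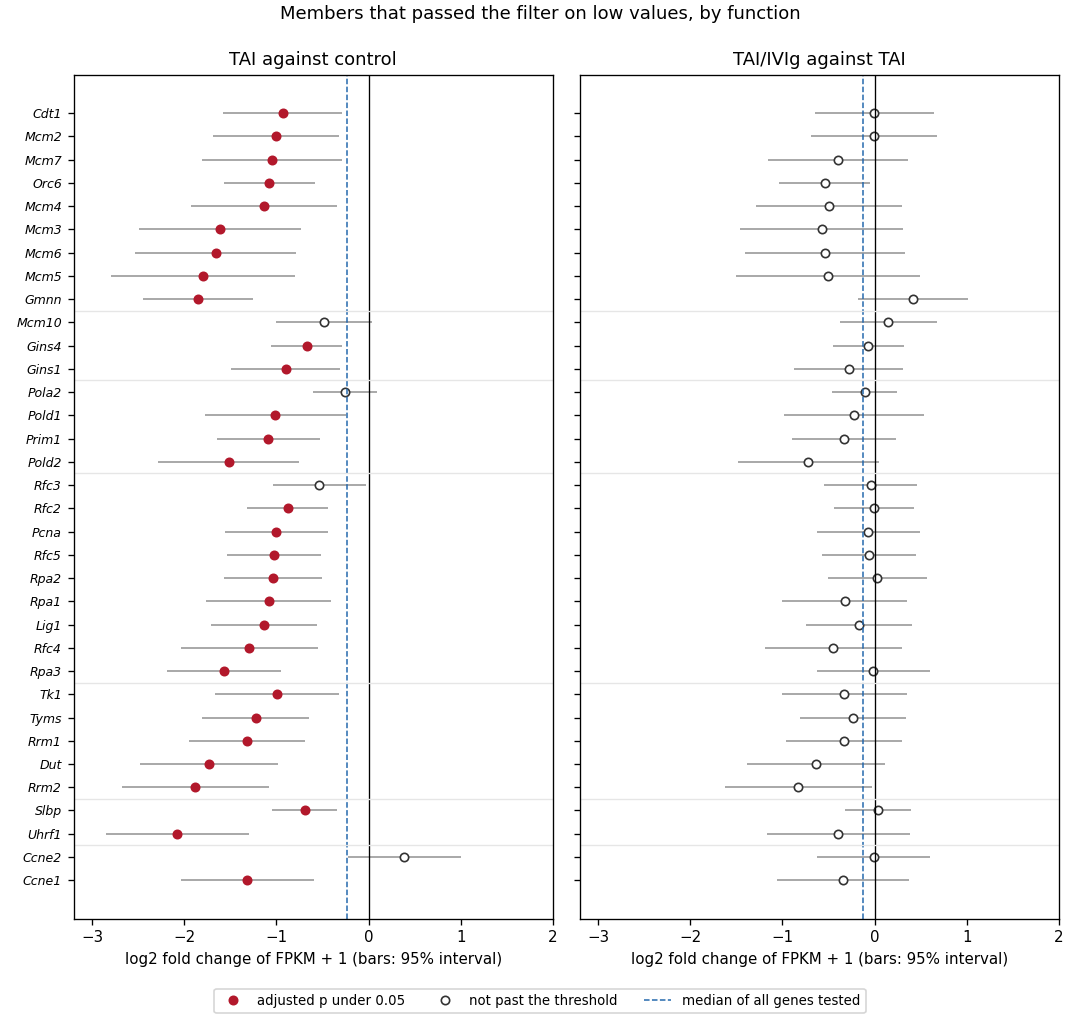
Log2 fold change of FPKM + 1 for the 34 genes tested, ordered by function, with 95% intervals, in TAI against control (left) and TAI/IVIg against TAI (right). Red points passed an adjusted p under 0.05, open points did not, and the dashed line is the median of all genes tested (-0.23 on the left, -0.13 on the right). The left panel holds 30 red points, all below 0, and the right panel none.

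The TAI/IVIg group was also set against the control group, which the TAI comparison shares. Each of its mice was below each control mouse for 42 of 47 genes and above for 0. Of all listed genes, 25.3% had each mouse below and 6.40% each above, and of all genes tested 44.3% and 11.5%. Limma called 30 of 34 genes lower and 0 higher, where 37.4% of all genes tested were lower and 9.06% higher. The exceptions among the 47 to the count of mice below were Cdc6, Mcm10, Pole2, Rfc3 and Ccne2. The 30 calls include Prim1, Tyms, Uhrf1 and Ccne1, which passed the filter through their control mice alone. Their calls are no independent support here either. Uhrf1 was at 5.11% of the control mean, Gins2 at 5.14%, Rrm2 at 7.20% and Mcm5 at 7.5%. The TAI/IVIg log2 fold change was -2.71 for Rrm2 and -2.47 for Uhrf1, beside -1.88 and -2.07 in TAI, and -1.43 for Gmnn, beside -1.85 in TAI. Without TAI/IVIg 2, limma called 30 of the 34 lower (38.2% of all genes tested) and 1 higher (8.16%), which was Ccne2 at 0.66 (limma adjusted p = 0.0469), against 0.38 with all mice.

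Genes of the same pathways outside the 47 were read in the same fit. Of 27 other replication genes tested, 16 were lower in TAI than in control and 0 higher, with a median log2 fold change of -0.55. In this comparison, and so for each list below, 26.1% of all genes tested were lower and 8.81% higher. Of these 27, 4 passed the filter through their control mice alone (Asf1b, Cdc7, Rnaseh2b and Wdhd1), so that their calls are no independent support, and 12 of the other 23 were lower. The histone chaperone Nasp fell by 1.36 on the log2 scale (limma adjusted p = 0.00427), and Asf1b, a further histone chaperone, was at 1.48, 6.10 and 5.53 FPKM in the control mice and at most 0.63 in the irradiated mice. Of 23 other nucleotide synthesis genes, 9 were lower and 0 higher (median -0.63), led by the mitochondrial folate enzymes Mthfd2 (-1.89) and Shmt2 (-1.53). Rrm2b, the reductase subunit known as a p53 target, gave -0.13 on the log2 scale (limma adjusted p = 0.640), beside -1.88 for Rrm2. Of 23 genes of G1/S control, 10 were lower and 1 higher (median -0.40). Cyclin A2 (Ccna2, -2.73) and E2f2 (-2.08) fell most, and Tfdp2, a dimer partner of E2F factors, rose by 0.58 (limma adjusted p = 0.00993). The inhibitor Cdkn1a (p21) was at 107.7 ± 19.5 FPKM in the control mice, 129 ± 3.10 in the TAI mice and 121 ± 24.2 in the TAI/IVIg mice (SD, n = 3 in each group), with 0.28 as its log2 fold change in TAI, which did not pass the test (limma adjusted p = 0.263). All 22 mitosis genes tested were lower in TAI (median -1.77), led by Ccnb2 (-2.94) and Birc5 (-2.71), with Mki67 at -2.52 and Top2a at -2.30. Of the 22, 14 passed the filter through their control mice alone and 8 did not. Ccna2, Ccnb2, Mki67 and Top2a reached 1 FPKM in TAI 2 alone among the irradiated mice, so their calls are no independent support either. In TAI/IVIg against TAI, 0 genes of these lists passed the test.

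**Figure D5:**
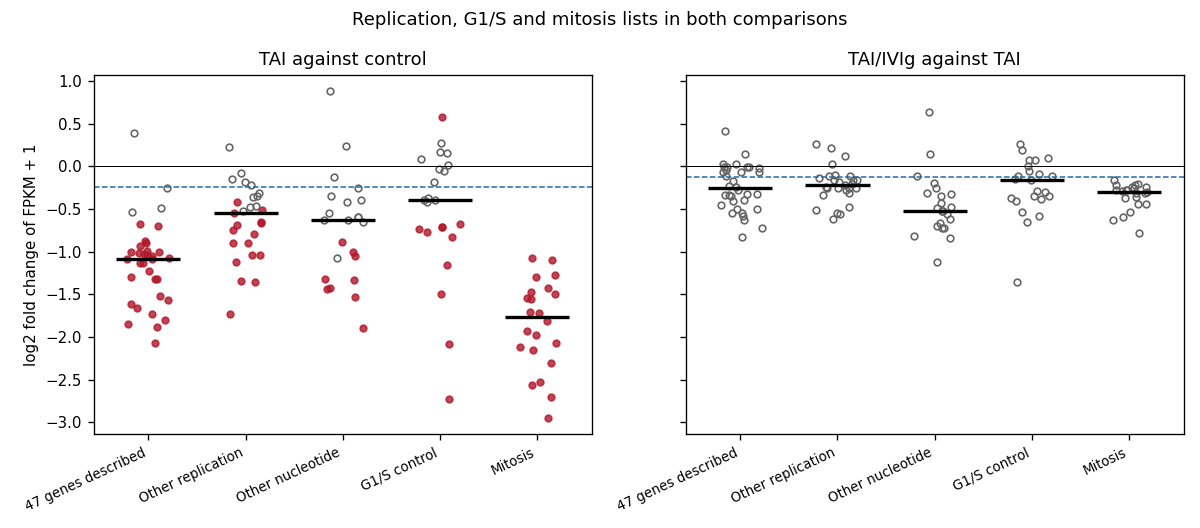
Log2 fold change of FPKM + 1 of the genes tested among the 47 and in 4 further lists, 1 point per gene, in TAI against control (left) and TAI/IVIg against TAI (right). Filled red points passed an adjusted p under 0.05, black bars are list medians and the dashed line is the median of all genes tested. On the left the mitosis list has a median of -1.77. Of its 22 genes, 14 passed the filter through their control mice alone, so its place among the lists depends in part on the filter.

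Markers of the jejunal cell types moved beside the members. Beside the 8 enterocyte markers that were higher in TAI, 0 of 6 T cell markers and 0 of 8 B and plasma cell markers tested passed the test in TAI against control, with medians of -0.88 and -1.08. The summed FPKM of the 12 crypt stem cell markers was 38.2, 105.8 and 46.3 in the control mice, 49.8, 51.1 and 40.5 in the TAI mice, and 36.4, 38.9 and 36.0 in the TAI/IVIg mice. Control 2 alone stood apart in this sum, while for the members control 2 and 3 were both high. Olfm4 alone held 8.39, 61.4 and 12.8 FPKM of the control sums, so the height of control 2 rests largely on this gene. Of the 8 tested in this list, 1 was lower in TAI, Olfm4 (log2 fold change -3.03, limma adjusted p = 0.00844), and 2 were higher, Axin2 (0.81, limma adjusted p = 0.0108) and Sox9 (1.08, limma adjusted p = 0.0463). Lgr5 was at 0.583, 0.981 and 0.371 FPKM in the control mice and 0.523, 0.921 and 0.422 in the TAI mice, which overlapped throughout. The summed FPKM of 30 mitosis genes was 78.3, 216.8 and 190.6 in the control mice, and control 1 was thus the lowest for mitosis genes as it was for replication genes. The summed Paneth cell markers ran from 1011 to 4933 FPKM in the control mice and from 1847 to 5079 in the TAI mice, and were 314, 1352 and 140.4 in the TAI/IVIg mice, with TAI/IVIg 2 highest as for the members. The summed goblet cell markers ran from 2314 to 3105, 3578 to 4671 and 2046 to 3501 FPKM in the same order of groups. TAI/IVIg was compared with TAI as well. At an unadjusted limma p under 0.05, all 8 Paneth, all 8 goblet and 11 of 12 stromal and muscle markers were lower. At this threshold 11.2% of all genes tested were lower and 1.64% higher, and 0 of these markers passed the adjusted threshold. No marker of the lists above was at 0 in any mouse. Of the 6 tuft cell markers, 1 was at 0 in control 1 and 3, TAI 3, and TAI/IVIg 1 and 3. In TAI against control, 2 of 8 enteroendocrine markers tested were lower and 0 higher. Of 7 myeloid markers 1 was lower and 2 higher, of 8 goblet markers 1 was lower and 3 higher, and 0 of 3 tuft markers passed the test. For TAI against control, 26.1% of all genes tested were lower and 8.81% higher at the adjusted threshold. The part of these cell type differences in the values of the members was not tested.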

How the data were processed

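The authors deposited FPKM values per gene and mouse, without pooling, for 31685 Ensembl genes in 9 mice. The submitters' processing notes name FastQC, Trimmomatic, STAR, featureCounts and DESeq2 with the builds mm10 and GRCm38, and no versions. Strand setting and annotation are not given in the sources used here. Gene lengths behind the FPKM values equalled merged exon lengths of GENCODE M21 for 46 of 47 members. FPKM values of all 31685 genes were whole multiples of a read (100%, tolerance 0.01 reads, a common factor needed for 281 genes), giving totals of 16282129 to 18241963 reads (median 17310189). Symbols were paired for 31146 identifiers. All 9 value columns belong to these mice (0 left out).

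The 3 groups were compared on log2(FPKM + 1) in limma 3.58.1 (R 4.3.3), each group being a term in a fit of all 9 mice with trended empirical Bayes. Benjamini-Hochberg adjustment ran over 13056 genes, those that reached 1 FPKM in 3 or more mice. Calls were made at an adjusted p under 0.05. With 3 mice against 3 an exact permutation test cannot go below 0.10, so none was used. The code of the fit was run on simulated reads, drawn around the control mean with 1 fixed spread, with some genes changed in TAI. The simulation lacks the differences between mice seen here, so it does not show how the fit behaves on these mice.

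The labels name no pairing. Deviations of same-numbered control and TAI mice correlated at 0.241 to 0.308, and those of differently numbered ones at -0.336 to 0.146. Same-numbered TAI/IVIg mice gave -0.0671 to 0.201 with TAI and -0.296 to 0.185 with control. The differently numbered TAI/IVIg 2 and control 3 reached 0.408, so these values do not establish a pairing. The main fit has no term for the mouse numbers. Groups came from the sample titles. Values of every mouse are given for the tested member with the largest and the smallest absolute log2 fold change of each functional group, for the 5 members with the smallest unadjusted p in TAI/IVIg against TAI, and for Mcm5, Pcna, Rrm2, Gmnn and E2f1. Of the other lists, the 2 largest falls and rises past the test are named, with Cdkn1a, Rrm2b, Mki67 and Top2a as values. Cdc7, Rnaseh2b and Wdhd1 were named after their values were seen. The members and lists were chosen with earlier results of these data known. Promoter sequences are RefSeq, GRCm38.p6, matched by symbol for 38 of 47 members.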

Additional observations from a re-analysis of the deposited data

How the results depend on the processing

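In TAI against control 30 members were lower (3411 of 13056 genes, 26.1%), from 15 to 32 with a mouse left out (15 without TAI 1, 18 without control 2, 19 without control 3 and 32 without control 1, where 12.6%, 15.0%, 15.9% and 28.3% of all genes were lower). The count was 5 of 5 tested at a mean FPKM of at least 5 (34.9% of all genes tested there) and 22 with voom and median-ratio library sizes (14.7%). It was 30 with a replicate block (28.1%), which left the count in TAI/IVIg against TAI at 0 members. In TAI/IVIg against control the block gave 31 members lower (38.2%), against 30 without it (37.4%). In that comparison 5 of 5 were lower at a mean FPKM of at least 5 (38.5%). Without TAI/IVIg 2, 30 were lower there (38.2%) and Ccne2 higher (8.16%). No pairing by number was established. With library medians set equal, 1687 of all genes tested were lower and 1817 higher in TAI, against 3411 and 1150. The median over the members in TAI against control was -1.08, and -1.44 with voom on total library sizes and -1.60 with voom on genes of at least 10 reads. In TAI/IVIg against TAI it was -0.26, 0.00072 with quantile normalization and -0.61 with voom on genes of at least 10 reads. In TAI/IVIg against control it was -1.41, -1.82 with a pseudocount of 0.1, -0.96 with library medians set equal, -0.94 with quantile normalization, -1.88 with voom and -2.19 with voom on genes of at least 10 reads. The pseudocount and the choice of genes tested enter these values by construction, and other causes were not tested.

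Directions turned for some members with library medians set equal, quantile normalization and voom with median-ratio sizes, in this order. In TAI/IVIg against TAI the values were 0.16, 0.25 and 0.18 for Cdt1, 0.066, 0.15 and 0.026 for Pola2, 0.19, 0.18 and 0.15 for Rpa3, 0.12, 0.23 and 0.12 for Rfc3, 0.20, 0.20 and 0.12 for Ccne2, and 0.17, 0.013 and 0.11 for Pcna. In TAI/IVIg against control they were 0.10, 0.15 and 0.0093 for Mcm10, and 0.070 and 0.12 for Pola2 under medians set equal and quantile normalization. In TAI against control Pola2 gave 0.0034 with medians set equal. Over the 18 named members in TAI against control, the fits with a mouse left out gave 140 values on the same side of the threshold. They gave 20 that were no longer past it, for Cdt1, Gins1, Tk1, Ccne1, Mcm5 and Pcna. They gave 2 that came past it, Mcm10 and Rfc3 without control 1. The other alternatives gave 188 values on the same side and 13 no longer past it, at limma or voom adjusted p-values of 0.0502 to 0.0804: Cdt1, Gins1 and Tk1 without a filter and with voom and median-ratio sizes, Cdt1 and Gins1 with medians set equal, Cdt1 in the 6 mice compared, Tk1 and Ccne1 with a pseudocount of 0.1, and Ccne1 with voom on median-ratio sizes and on genes of at least 10 reads. They gave, in TAI/IVIg against control, 8 no longer past it, for Cdt1, Slbp and Pcna, and 1 that came past it, Rfc3 with the replicate block. In that comparison the fits with a mouse left out gave 4 no longer past it, all for Cdt1, and 2 that came past it, Rfc3 and Ccne2. With a mouse left out, the values in TAI/IVIg against TAI ran from -0.14 to 0.15 for Cdt1, -0.23 to 0.017 for Pcna, -0.18 to 0.23 for Rpa3, -0.10 to 0.028 for Rfc3, -0.29 to 0.27 for Ccne2, -0.021 to 0.24 for Mcm10 and -0.0096 to 0.062 for Slbp. The members of few reads limit what the depth can show.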
